A study of Saccharomyces cerevisiae with 79 samples.

Results

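The time courses compared were those of the Saccharomyces cerevisiae strain prp2-1 and of the wild type BY4741, labelled WT, at the nominal labelling times of 150, 210 and 300 s. They make up 18 of the 79 samples of the series, 9 from each strain, in 3 courses of 3 libraries each. WT samples were taken at 150 to 160, 209 to 217 and 298 to 304 s after 4-thiouracil was added, and prp2-1 samples at 150 to 162, 206 to 214 and 294 to 302 s. All cultures grew in synthetic medium (CSM), cells were caught on filters and frozen, and the thiolated RNA was biotinylated and pulled down. The labels give no temperature for the cultures and no genotype for prp2-1 beyond its name. PRP2 has no intron among the 308 measured, so the allele itself could not be checked in these data.

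The assay, MPE-seq, extends a pool of primers, 1 per intron, each placed in the exon downstream so that reverse transcription runs towards the intron. A read that joins the exons is spliced. A read that enters the intron is unspliced, and among these a read that stops at the branch point is counted as a lariat intermediate, which the first step produces. Reads that stop downstream of the branch point but still inside the intron were deposited as a further class within the unspliced reads.

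Prp2 is a DEAH-box ATPase that remodels the spliceosome once it is assembled, ahead of the first step, when the branch-point adenosine attacks the 5′ splice site. It leaves the spliceosome before that reaction, and Prp16 and Prp22 act at later stages. prp2-1 is a classical temperature-sensitive allele. 4-thiouracil enters new RNA only, so short labelling times enrich for transcripts whose introns have had little time to be removed.

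The sample titles did not decide which table columns hold courses 2 and 3 of prp2-1. Column number 12 is absent from the prp2-1 tables, as is a 120 s sample of course 2, so columns 13 to 30 were taken as title numbers 12 to 29. Under that reading the scaling factor the authors applied to each library equalled that of course 1 at the same nominal time in 8 of 8 labelled libraries of course 2 and 9 of 9 of course 3, within a relative tolerance of 0.02. Under the titles as numbered it did so in 0 of 8 and 0 of 8. Intron reads per spike-in read also rose at every step from 0 to 300 s in each prp2-1 course (4 of 4, 3 of 3 and 4 of 4 steps). The assignment is therefore a reading of the tables and not given by the column names. Values from course 1 alone are printed for some introns only, and calls of further introns also changed with that course alone.

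Library size ranged from 1394568 to 6433707 reads in WT and from 441973 to 2310173 in prp2-1. Summed over a course, intron reads came to 11488580 to 14658135 in WT and 2059673 to 3395314 in prp2-1, so single introns are known less precisely in prp2-1. Libraries stood apart in both strains. WT course 2 at 300 s had 837 spike-in reads and an unspliced share of 1.79% of all intron reads, the lowest of the 18. In prp2-1 at 210 s, courses 2 and 3 had 13.98% and 21.5%, the highest of the 18. The labels do not state that the replicate courses are independent cultures; the p-values therefore reflect only how these courses vary, and part of that may be technical.

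Against the spike-ins, far less labelled RNA was recovered from prp2-1. The spike-ins are 5 thiolated Schizosaccharomyces pombe RNAs transcribed in vitro and added in a fixed quantity to a fixed quantity of total RNA, per the labels' protocols, which do not say that the quantity was the same for both strains. Intron reads per spike-in read in the 150 to 300 s window were 626, 584 and 831 in the WT courses and 17.5, 18.05 and 16.9 in the prp2-1 courses. The strains did not overlap, and the ratio of the means was 0.0257 (exact permutation test over 6 courses, two-sided, p = 0.10, the smallest this design allows). Unlabelled samples at 0 s differed by nearly the same ratio, 0.0258, with 41.4, 45.3 and 67.2 in WT and 1.92, 0.933 and 1.12 in prp2-1. The 0 s level was thus 7.48% ± 0.778 of the window's level in WT and 7.598% ± 3.03 in prp2-1 (SD, n = 3 each).

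**Figure D1:**
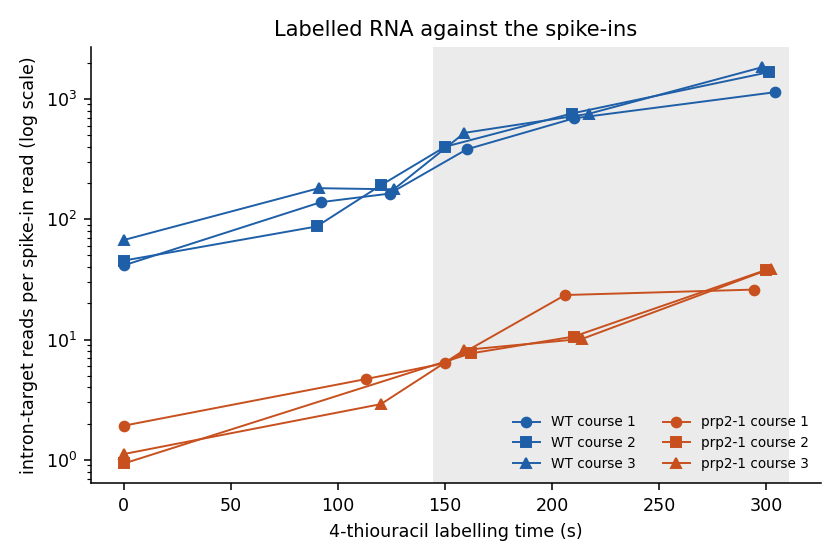
Intron-target reads per spike-in read (log axis) against the labelling time in seconds, from 0 to 300 s; each line is 1 course, blue for WT and orange for prp2-1, and the grey band marks the 150 to 300 s window. WT lies above prp2-1 at every time, from 41.4 to 67.2 against 0.933 to 1.92 at 0 s.

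The gap held for nearly every intron, whichever read state was counted. Unspliced reads per spike-in read were lower in prp2-1 for 275 of 277 introns (99.3% called) and higher for 0, with a median log2 change of -5.03 (276 with the replicate block, 99.6%). Spliced reads per spike-in read were lower for 274 of 277 (98.9% called) and higher for 0, with a median of -4.67. The smallest unadjusted p-values belonged to the first intron of HMRA1, taken up again with the labelled RNA, and to ribosomal protein introns. For unspliced reads the smallest adjusted p-value was a tie. It also held introns of other genes, among them NSP1, UBC9 and the first intron of TAD3. The first intron of RPL7A, a large-subunit protein gene, had 45.0, 56.2 and 56.9 unspliced reads per 1000 spike-in reads in WT and 0.403, 0.361 and 0.442 in prp2-1 (log2 change -7.03, SE 0.27, adjusted p = 8.94e-08 in edgeR). RPS6B, a small-subunit protein gene, had 39.2, 30.8 and 36.3 in WT and 0.474, 0.431 and 0.442 in prp2-1 (log2 change -6.30, SE 0.24, adjusted p = 8.94e-08). Spliced reads of RPL34B went from 1213, 1090 and 1194 to 18.9, 16.1 and 16.1 per 1000 spike-in reads (log2 change -6.10, SE 0.34, adjusted p = 3.24e-14). Values per spike-in read carry whatever differed between the strains in spike-in quantity. They are per quantity of total RNA, so the number of cells does not enter them. The shares below do not depend on the spike-ins.

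The first question was whether new transcripts of prp2-1 carry more unspliced RNA than those of WT. For a typical intron no difference was detected at these times. The median unspliced share over 277 introns was 9.87%, 11.9% and 11.3% in the WT courses and 7.48%, 7.05% and 10.6% in the prp2-1 courses. The strains overlapped, with means of 11.0% ± 1.04 and 8.38% ± 1.94 (SD, n = 3 each; exact permutation test, two-sided, p = 0.20, where 0.10 is the smallest possible). By time, the median was 14.8% ± 0.948 at 150 s, 10.3% ± 0.550 at 210 s and 6.14% ± 1.77 at 300 s in WT, and was 11.4% ± 3.09, 11.3% ± 4.14 and 6.23% ± 0.727 in prp2-1 (SD, n = 3 each), where the 150 and 210 s values did not differ beyond their spread.

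Pooled over all intron reads the order was the other way round. Unspliced reads made up 5.64%, 5.86% and 6.76% of intron reads in the WT courses and 8.55%, 7.64% and 11.0% in the prp2-1 courses, with no overlap (exact permutation test, two-sided, p = 0.10, the smallest possible). The pooled share depends on which transcripts are sampled: ribosomal protein introns, with median unspliced shares of a few percent, gave 81.7% to 83.9% of intron reads in WT and 60.9% to 70.1% in prp2-1. With each intron weighted as in WT, the pooled share was 5.40%, 6.26% and 6.65% in WT and 4.32%, 4.13% and 5.65% in prp2-1, and the strains overlapped (exact permutation test, two-sided, p = 0.20).

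The test per intron compared the odds of unspliced against spliced reads between the strains. With edgeR's quasi-likelihood test and p-values adjusted by Benjamini-Hochberg (threshold 0.05), 16 of 277 introns were lower in prp2-1 (5.78% called) and 1 was higher (0.361% called), and the median log2 change over all 277 was -0.51. These calls changed when the times were weighted otherwise. In the sums, 150 s gave 30.4% to 40.5% of a course's intron reads in WT and 14.3% to 19.1% in prp2-1, and 300 s gave 12.1% to 43.9% in WT and 43.6% to 66.3% in prp2-1. Equal weight of the 3 times was run in limma, on the log2 odds of single libraries averaged per course. In that setting 0 introns were lower and 1 was higher, none of the 17 was called, and the median was -0.12. On the sums, limma gave 12 lower and 2 higher. The weighting was not tested apart from this change of method. At 150 s alone and at 300 s alone 0 introns passed in either direction, with medians of -0.34 and -0.094, and at 210 s alone 2 were lower and 2 higher, with a median of 0.14. The part of this weighting in the log2 changes printed below for single introns was not tested beyond these settings. At an unadjusted p under 0.05, 85 introns differed. The courses of the strains did not overlap for 81 introns that were lower (29.2%) and 9 that were higher (3.25%). With the replicate number as a block, which the deviations of same-numbered courses allow, 73 introns were lower (26.4%) and 3 higher (1.08%), 76 in all (27.4%), and these included all 17 found without the block. The count rests on single courses: leaving out WT course 2, WT course 3 or prp2-1 course 1 left 0 introns in either direction, leaving out WT course 1 left 1 lower and 1 higher, and leaving out prp2-1 course 3 gave 78 lower and 3 higher. prp2-1 course 1 alone against the WT courses gave 20 lower and 2 higher, of which 10 were among the 17. Without the 210 s libraries, a choice made after seeing the data, 64 introns were lower and 0 higher.

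**Figure D2:**
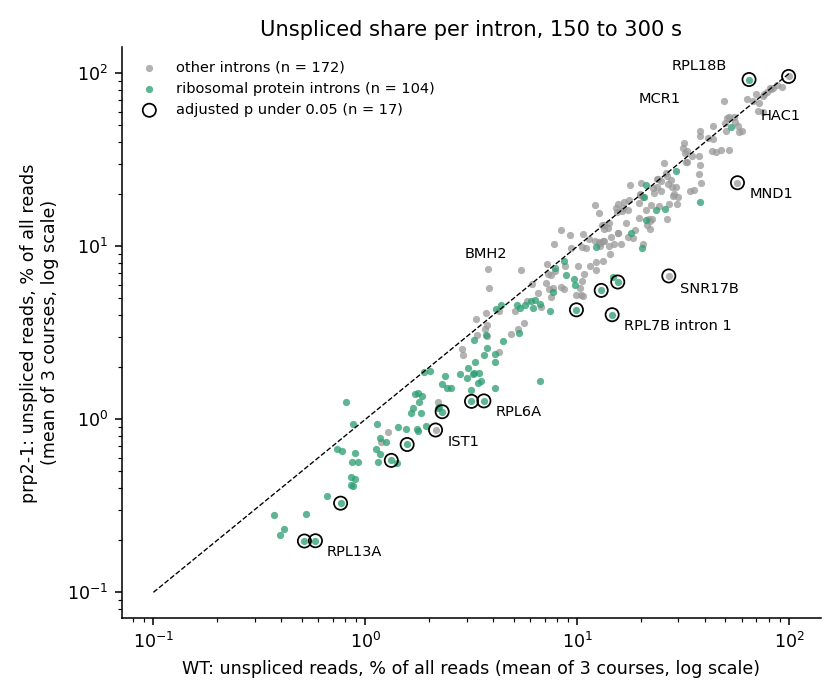
Unspliced reads as a percentage of all reads of an intron, mean of the 3 prp2-1 courses against the mean of the 3 WT courses, both on log axes; green points are ribosomal protein introns, grey points the others, circles mark adjusted p under 0.05 and the dashed line is equality. The first intron of HMRA1 is left out because prp2-1 gave 1 read of it. Most ribosomal protein introns lie below the line, and RPL18B lies above it.

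Ribosomal protein introns made up most of the lower group in the summed reads. Of their 104 introns, 12 passed as lower and 1 as higher, against 4 lower and 0 higher of the other 173; the median log2 change was -0.77 in the former and -0.29 in the latter, and -0.51 over all. Their median unspliced share per course was 2.54%, 2.85% and 2.89% in WT and 1.38%, 1.49% and 2.11% in prp2-1, without overlap (exact permutation test, two-sided, p = 0.10, the smallest possible). In the summed reads the log2 change was below 0 in 55 of 59 large-subunit and 45 of 45 small-subunit introns, and it was below 0 in 232 of the 277 tested. With equal weight of the times it was below 0 in 86 of the 104 ribosomal introns (median -0.40) and in 66 of the other 173, whose median turned to 0.15. At 210 s alone it was below 0 in 50 of 103 ribosomal introns and above 0 in 53. With a TMM factor per read state the ribosomal median was -0.62. Many of these genes are near-identical pairs, and how reads that match both copies were treated is not given in the sources used here.

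The first intron of RPL7B, which encodes a protein of the large subunit, was among the clearest. Its unspliced share was 13.3%, 13.99% and 16.5% in the WT courses and 4.54%, 2.97% and 4.56% in the prp2-1 courses. Every prp2-1 course was below every WT course (log2 change -2.05, SE 0.30, adjusted p = 0.0108). RPL6A, another large-subunit gene, had 2.95%, 4.07% and 3.85% in WT and 1.28%, 1.31% and 1.24% in prp2-1, where the courses were nearly equal (log2 change -1.53, SE 0.28, adjusted p = 0.0242).

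The remaining ribosomal protein introns of the lower group had WT shares from under 1% to over 10%. RPL33B went from 10.6%, 18.6% and 17.4% to 5.96%, 3.91% and 8.79% (log2 change -1.51, adjusted p = 0.0486), but with equal weight of the times its change was -0.85 (adjusted p = 0.363), and it also missed the threshold in limma (0.0623), without the count filter (0.0616) and with prp2-1 course 1 alone (0.0565). RPL37B went from 2.75%, 3.43% and 3.32% to 1.37%, 1.08% and 1.37%. RPL13A and RPS6A were spliced almost fully in both strains, with 0.536% to 0.670% and 0.451% to 0.575% in WT and 0.114% to 0.266% and 0.141% to 0.266% in prp2-1. RPS9A, the gene of a small-subunit protein, went from 9.35%, 9.74% and 10.6% to 5.36%, 3.78% and 3.74%. RPL2B, RPL20B, RPL37A, RPL39 and RPS4B also passed, with log2 changes from -1.34 to -1.07. Some introns with larger changes did not pass: RPS7A had 24.0%, 38.7% and 51.2% in WT and 10.9%, 10.9% and 32.5% in prp2-1 (adjusted p = 0.122), and RPS30B had a log2 change of -1.88 (adjusted p = 0.118). RPS29A was nearest to equal among the small-subunit introns, with a log2 change of -0.03.

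Outside the ribosomal proteins, 4 introns passed as lower. SNR17B is 1 of the pair of genes for U3, the small nucleolar RNA needed to process the 18S rRNA precursor and a rare case of an intron in a non-coding RNA. Its unspliced share was 20.3%, 35.4% and 25.3% in WT and 3.17%, 6.41% and 10.6% in prp2-1, and all prp2-1 courses were below the lowest WT course (log2 change -2.48, SE 0.49, adjusted p = 0.0242). Its partner SNR17A had 9.87%, 11.7% and 11.3% in WT and 6.33%, 12.7% and 10.1% in prp2-1, overlapped and did not pass (log2 change -0.24, adjusted p = 0.689). The mature parts of the pair are nearly the same, so spliced reads of one could have been counted for the other. The difference between the pair was not tested.

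MND1, which encodes a protein of meiotic strand exchange, had 55.6%, 56.5% and 58.8% unspliced in WT and 15.9%, 17.0% and 37.0% in prp2-1. The WT courses lay close together and well above prp2-1 (log2 change -2.29, SE 0.44, adjusted p = 0.0242), although single libraries gave 6 to 153 reads of it. Of the 13 introns of the meiosis list 5 were abundant enough to test, and 1 passed as lower; all 5 had log2 changes below 0, with a median of -0.82, but with equal weight of the times 2 were below 0 and 3 above. IST1, an endosomal sorting gene, had 2.06%, 2.45% and 1.92% in WT and 0.743%, 0.772% and 1.09% in prp2-1 (log2 change -1.37, SE 0.32, adjusted p = 0.0323). With equal weight of the times the IST1 change was -0.57 (adjusted p = 0.549), and it was -1.84 at 150 s, -0.31 at 210 s and -0.41 at 300 s alone. YPR202W, an open reading frame at a chromosome end with other copies in the genome, had 99.2% to 99.3% in WT and 94.8% to 97.3% in prp2-1 (log2 change -2.42, SE 0.48, adjusted p = 0.0242), and its reads cannot be assigned to 1 copy.

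The MND1 and IST1 introns are short and are shown whole to set their splice signals side by side. The sequences are from the R64 RefSeq genome, 5′ to 3′ along the gene, with the 5′ splice site, the branch sequence and the 3′ splice site in capitals. Here and below, the branch sequence is the closest match to TACTAAC towards the 3′ end of the intron, and not an annotated site. The MND1 intron spans chrVII:157200-157282 on the minus strand (83 nt) and the IST1 intron chrXIV:145150-145254 on the minus strand (105 nt). Both begin with GTATGT; the MND1 branch sequence is CACTAAC, with 1 mismatch to the yeast consensus TACTAAC, and that of IST1 is the consensus itself.
MND1: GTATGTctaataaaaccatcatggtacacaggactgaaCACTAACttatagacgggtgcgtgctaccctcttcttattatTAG
IST1: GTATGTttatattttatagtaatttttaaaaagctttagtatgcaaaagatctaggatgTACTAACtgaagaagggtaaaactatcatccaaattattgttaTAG

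Over introns with 1 annotated intron per gene, the median log2 change of the unspliced odds was -0.56 for the 192 with TACTAAC and -0.36 for the 39 with another branch sequence, and without ribosomal protein introns -0.29 for 110 and -0.30 for 35. These are descriptions over introns with no test, and the branch sequences were themselves picked by closeness to TACTAAC. By length, the medians were -0.73 for 108 introns of 200 nt or more and -0.30 for 123 shorter ones.

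RPL18B, a large-subunit gene, was the 1 intron that passed as higher. Its unspliced share was 81.9%, 58.0% and 53.7% in WT and 94.2%, 86.7% and 95.4% in prp2-1, without overlap (log2 change 2.77, SE 0.59, adjusted p = 0.0284). Most of those reads stopped in the intron past the branch point: 93.7%, 69.4% and 77.7% of unspliced reads in WT and 98.7%, 98.8% and 99.7% in prp2-1. Over the 277 tested introns, the median of that share was 6.53% to 14.3% in WT and 8.38% to 17.0% in prp2-1. With such reads removed, the RPL18B share was 22.3%, 29.7% and 20.6% in WT and 17.4%, 7.05% and 6.66% in prp2-1, and the log2 change became -1.60 (adjusted p = 0.0356), the opposite direction.

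The RPL18B intron spans chrXIV:64019-64450 on the minus strand (432 nt). Its last 70 bases show the stretch from the branch sequence to the 3′ splice site (both in capitals), 40 nt from the branch adenosine. Whether the authors used the same branch point to class the reads is not given in the sources used here.
RPL18B: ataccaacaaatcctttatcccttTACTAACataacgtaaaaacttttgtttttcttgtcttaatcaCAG

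RPL18B reads were unequal between libraries. In prp2-1 course 3 at 210 s, 34174 of 35219 RPL18B reads were unspliced and 34143 of these stopped past the branch point. RPL18B made up 37.2% of all unspliced reads of that library, against 0.400% to 9.44% in the other 17. Without RPL18B that library had 14.7% of its intron reads unspliced, still the highest of the 18. Without the whole of prp2-1 course 3 the RPL18B change was 2.42 (adjusted p = 0.0305). It did not pass without WT course 2 (2.51, adjusted p = 0.126), WT course 3 (2.38, adjusted p = 0.140) or prp2-1 course 1 (2.60, adjusted p = 0.156), nor without the 210 s libraries of both strains (0.96, adjusted p = 0.285).

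**Figure D3:**
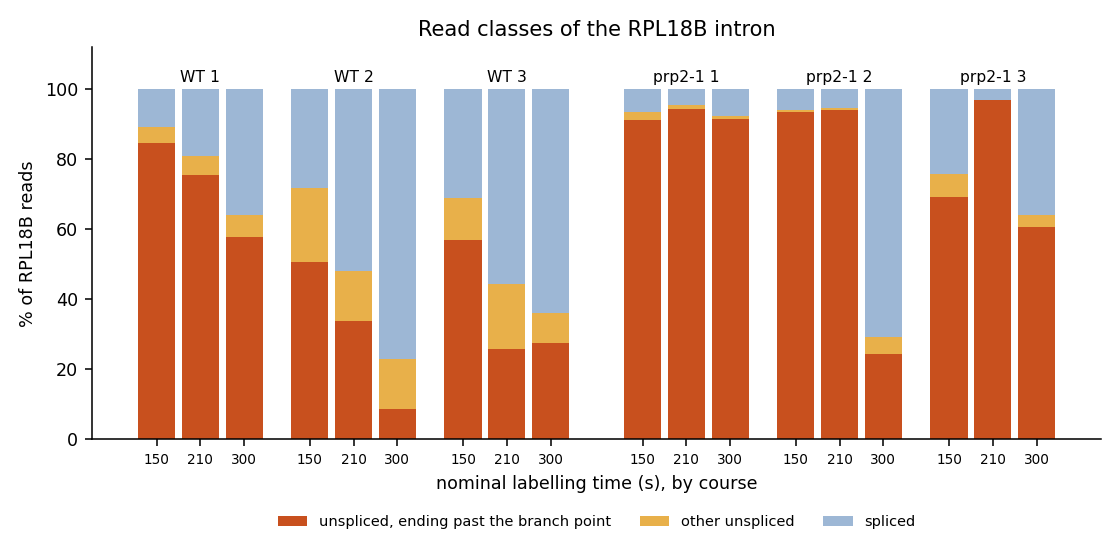
Reads of the RPL18B intron in each library as a percentage of its reads, split into unspliced reads that end past the branch point (orange), other unspliced reads (yellow) and spliced reads (blue), by course and nominal labelling time in seconds. The orange class makes up most of the unspliced reads in nearly every library and is larger in prp2-1 at 150 and 210 s than in WT courses 2 and 3.

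MCR1 and BMH2 lay just beyond the threshold on the higher side. MCR1 encodes the mitochondrial NADH-cytochrome b5 reductase. Its unspliced share was 53.4%, 43.5% and 51.0% in WT and 73.2%, 61.1% and 72.0% in prp2-1, without overlap (log2 change 1.20, SE 0.32, adjusted p = 0.0518; with the replicate block, 0.000749; course 1 alone, 0.0395). BMH2, a 14-3-3 protein gene, had 4.00%, 3.93% and 3.47% in WT and 7.90%, 6.28% and 7.91% in prp2-1, also without overlap. Its log2 change was 1.00 (SE 0.27, adjusted p = 0.0518 in edgeR, or 0.00799 with the replicate block). By library, 27.3% to 73.9% of BMH2 unspliced reads in WT and 33.7% to 83.5% in prp2-1 ended past the branch point. With such reads removed, the share by library was 1.05% to 2.18% in WT and 1.81% to 4.26% in prp2-1.

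Several well-known introns did not pass. ACT1, the actin gene, had 19.1%, 23.3% and 25.4% in WT and 14.6%, 11.2% and 17.1% in prp2-1 (log2 change -0.82, SE 0.31, adjusted p = 0.126; with the replicate block, 0.0229). GCR1, which encodes an activator of glycolytic genes, had 72.1% to 78.7% in WT and 67.6% to 81.6% in prp2-1. DBP2, an RNA helicase gene with a 1002 nt intron, had 22.7%, 39.4% and 33.9% in WT and 44.8%, 36.6% and 36.7% in prp2-1 (log2 change 0.49, SE 0.38, adjusted p = 0.402). In SUS1, a gene of mRNA export and histone deubiquitination with 2 introns, the log2 change was 0.10 (SE 0.44) for the first intron and -1.05 (SE 0.53) for the second, and neither passed (adjusted p = 0.904 and 0.205).

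HAC1 serves as a control, because its intron is cut by the endonuclease Ire1 and not by the spliceosome. Its unspliced share was 70.1%, 66.8% and 65.8% in WT and 70.4%, 68.4% and 69.7% in prp2-1. The strains overlapped (log2 change 0.13, SE 0.26, adjusted p = 0.781), and a change of that size lies within the error.

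In the other gene groups, the unspliced share passed in few members or none. Over all 277 introns 5.78% passed as lower and 0.361% as higher, and 232 had log2 changes below 0. Whether any of these small groups differed from those shares was not tested. For U3, 1 of 2 passed as lower; of 11 introns in genes that host small nucleolar RNAs, 1 was lower (RPL7B) and IMD4 had -1.05; of 9 in genes that regulate their own splicing or decay, 1 was lower (RPS9A). No member passed among 14 secretory pathway introns, with log2 changes from -1.04 in the second YOS1 intron to -0.10 in SEC17, nor among 9 mitochondrial ones, of which COX4 had -1.21 (adjusted p = 0.118). Also with 0 passing were 8 each in ubiquitin-like conjugation, transcription and chromatin, and kinases and phosphatases, 7 in mRNA export and decay, 6 each in actin and tubulin, 5 each in tRNA modification and spliceosome components, and 3 in translation factors. In 2 of these groups the median was above 0, with 0.17 over the spliceosome components, led by SMD2 (0.42), and 0.23 over tubulin and its folding, led by TUB3 (0.64).

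The difference between the strains did not change detectably from 150 to 300 s. In a test of the strain difference at 300 s against that at 150 s, 0 of 276 introns passed in edgeR (0% called) and 0 had an unadjusted p under 0.05; no other tool was run. The fit did not use the pairing of the 150 and 300 s libraries within a course and treated them as independent. The smallest p-value was that of DBP2 (log2 change 1.71, SE 0.83, adjusted p = 0.998). With errors of that size a change by a factor of 2 in a single intron would not be detectable.

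The second comparison asked what part of the unspliced reads had already passed the first step. The median lariat share of unspliced reads over 249 introns was 17.7%, 18.04% and 21.8% in the WT courses and 16%, 12.99% and 17.4% in the prp2-1 courses. The strains did not overlap, with means of 19.2% ± 2.31 and 15.5% ± 2.27 (SD, n = 3 each; exact permutation test, two-sided, p = 0.10, the smallest possible). Without reads past the branch point that p became 0.40. Per intron, 1 of 249 passed as higher (0.402% called) and 1 as lower (0.402% called), with a median log2 change of -0.45, or 0.10 with a TMM factor per read state, which turns its direction. With the replicate block 2 introns were higher (0.803%) and 6 lower (2.41%), 8 in all (3.21%). The courses of the strains did not overlap for 56 introns that were lower (22.5%) and 8 that were higher (3.21%). No intron passed without WT course 2, without prp2-1 course 1, or with prp2-1 course 1 alone.

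MCR1 stood out on the higher side. Lariat intermediates made up 22.9%, 14.8% and 14.8% of its unspliced reads in WT and 59.9%, 49.4% and 55.6% in prp2-1 (log2 change 2.55, SE 0.40, adjusted p = 0.0170). By library they were 6.17% to 26.1% in WT and 34.9% to 64.1% in prp2-1, so none of the 9 libraries of one strain reached those of the other. The log2 change was 2.26 at 150 s, 2.80 at 210 s and 2.703 at 300 s, and at most 2 reads of this intron per library were counted past the branch point. MCR1 thus had both a larger unspliced share and a larger lariat share of its unspliced reads in prp2-1, though the former missed the threshold. Per spike-in read, its unspliced reads were lower in prp2-1 (log2 change -2.39, SE 0.35, adjusted p = 8.36e-05 in edgeR).

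RPL18B was the intron that passed as lower, with lariat shares of 0.385%, 1.80% and 2.25% in WT and 0.0967%, 0% and 0.0253% in prp2-1 (log2 change -5.09, SE 0.97, adjusted p = 0.0393). Here too the reads past the branch point weigh: with them removed from the denominator, the share was 6.09%, 5.89% and 10.1% in WT and 7.45%, 0% and 7.38% in prp2-1, and the change was -0.68 (adjusted p = 0.784).

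DBP2 had a large difference that did not pass. The lariat share was 56.6%, 62.4% and 76.0% in WT and 30.1%, 25.5% and 38.2% in prp2-1, without overlap (log2 change -2.08, SE 0.45, adjusted p = 0.0694; with the replicate block, 0.0138). Without reads past the branch point the log2 change was -1.96 (SE 0.56, adjusted p = 0.377 in edgeR), and the courses still did not overlap. In WT the lariat share of all unspliced reads stayed between 46.7% and 76.5% in all libraries. In prp2-1 it was 37.8% to 52.6% at 150 and 210 s and 7.14% to 29.8% at 300 s. DBP2 is known to limit its own expression through its intron. That intron spans chrXIV:414912-415913 on the plus strand, and its last 70 bases are set against those of ACT1, whose intron (chrVI:54378-54686, minus strand) has the same branch sequence and the same 43 nt from branch adenosine to 3′ splice site.
DBP2: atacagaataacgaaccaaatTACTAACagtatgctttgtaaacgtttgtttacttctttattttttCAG
ACT1: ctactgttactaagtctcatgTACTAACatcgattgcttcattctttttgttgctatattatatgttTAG
The lariat share of ACT1 was 34.1%, 36.04% and 37.1% in WT and 27.3%, 30.9% and 28.9% in prp2-1. Its courses did not overlap, but the change was small beside its error (log2 change -0.44, SE 0.34, adjusted p = 0.498).

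Other introns with large changes did not pass either. RPS8B had 4.77%, 5.04% and 4.45% in WT and 0 lariat reads in all prp2-1 courses (adjusted p = 0.147), at an unspliced depth of 44 to 87 reads per prp2-1 course. RPL34A went from 4.33%, 4.61% and 8.05% to 0.645%, 0% and 2.99%, and RPS17A from 10.5%, 17.8% and 18.6% to 5.88%, 1.23% and 7.80%. RPS26B went the other way, from 23.3%, 18.5% and 13.2% to 34.2%, 30.3% and 29.1%, as did the first intron of RPL7B, from 2.34%, 2.17% and 1.34% to 3.16%, 2.83% and 5.81%. In PCC1, a gene of the KEOPS complex of tRNA modification, the share was 6.35% to 10.03% in WT and 16.1% to 25.0% in prp2-1 (adjusted p = 0.267).

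The introns that follow did not pass. CGI121, also of KEOPS, had 80.3% to 89.2% in WT and 87.4% to 90.1% in prp2-1. The SNARE gene SNC1 had 62.8% to 68.4% and 61.9% to 66.8%, and the second intron of SUS1 79.0% to 83.7% and 71.2% to 80.1%. GCR1 had 2.85% to 3.29% and 2.73% to 6.93%, and MTR2, an mRNA export gene, 0.203% to 0.304% and 0.266% to 0.406%. SEC17, a vesicle fusion gene, was variable in both strains, with 22.3% to 60.3% and 3.55% to 34.5%.

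**Figure D4:**
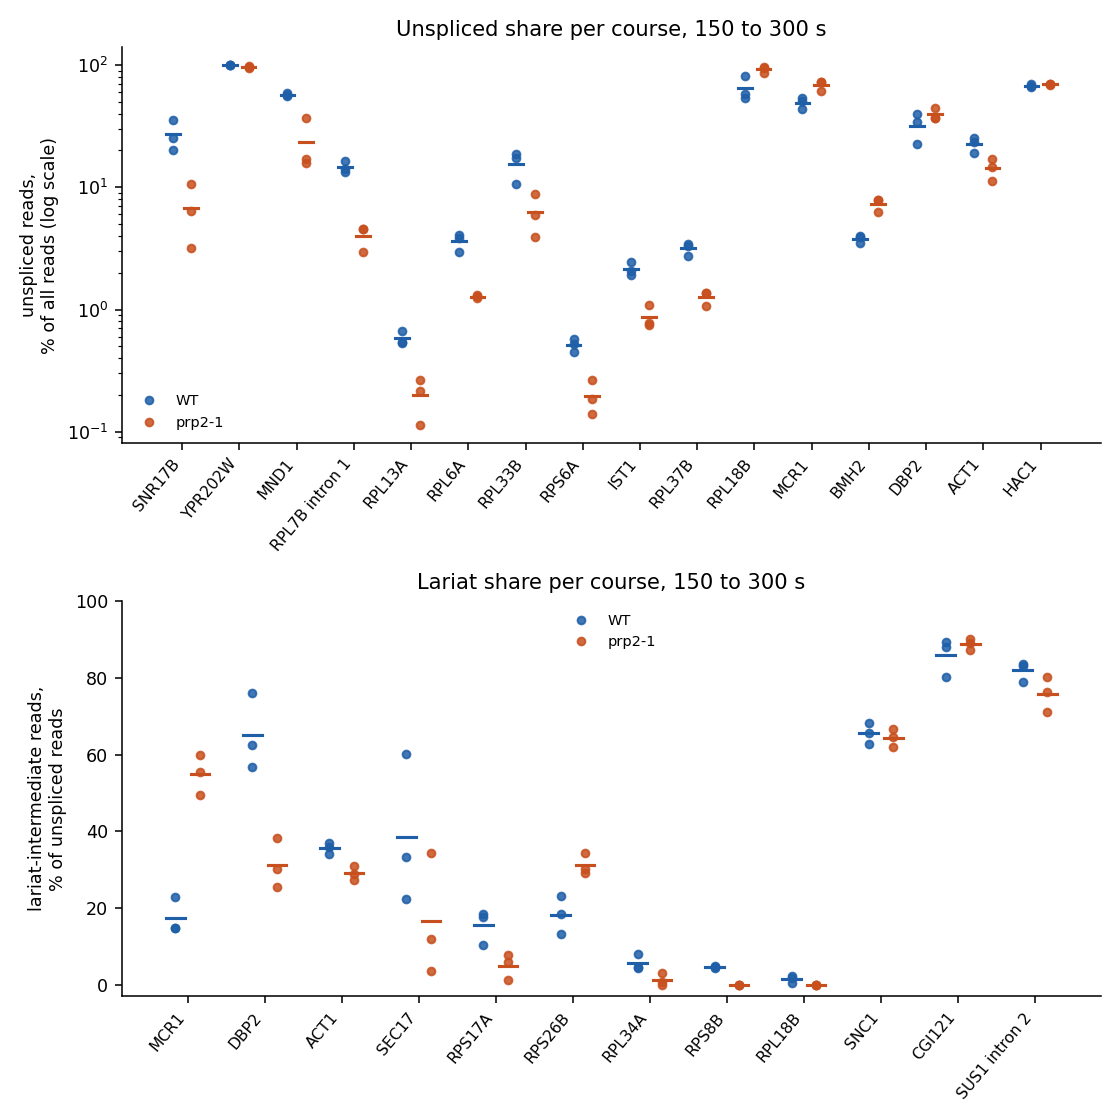
Values per course for named introns, blue for WT and orange for prp2-1, with a bar at the mean of 3 courses. The upper panel gives unspliced reads as a percentage of all reads (log axis) and the lower panel lariat-intermediate reads as a percentage of unspliced reads; MCR1 and DBP2 separate the strains in opposite directions in the lower panel.

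The third comparison was of the labelled RNA itself, as all reads of an intron's primer scaled between courses by TMM. By this measure the strains differed widely, by edgeR's quasi-likelihood test: 92 of 277 introns were higher in prp2-1 (33.2% called) and 75 lower (27.1% called), with a median log2 change of 0.11. With the replicate block 106 were higher (38.3%) and 87 lower (31.4%), and the courses did not overlap for 99 that were higher (35.7%) and 84 that were lower (30.3%). The scaling sets the zero. With the total of intron reads as library size the median was 0.55, with 118 higher and 23 lower, and with spike-in reads it was -4.73, with 0 higher and 275 lower. The changes below are thus relative to the other intron-bearing transcripts, and every rise named below has a log2 change under 0 against the spike-ins except that of USV1, which has 0.01.

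**Figure D5:**
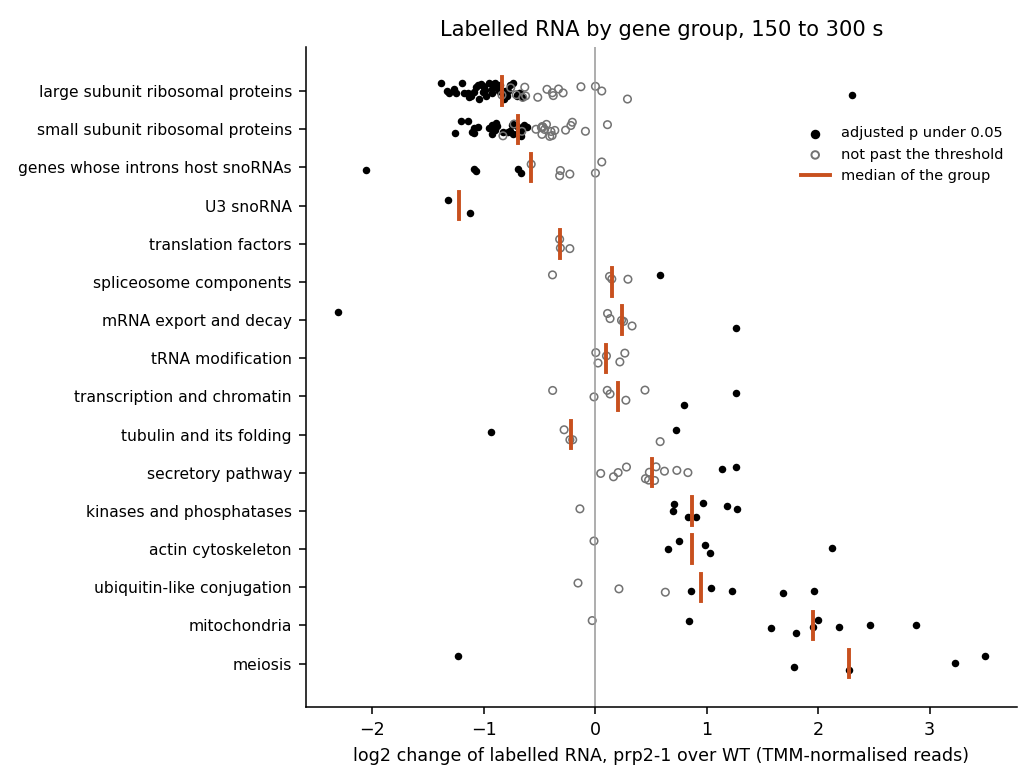
Log2 change of labelled RNA, prp2-1 over WT, from TMM-normalised reads, for the tested introns of 16 gene groups; filled points have an adjusted p under 0.05, open points do not, and the orange bar is the group's median. Most ribosomal protein and both U3 genes lie to the left of 0, and most mitochondrial, actin and meiotic genes to the right.

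Ribosomal protein transcripts were lower. Of 104 introns 68 were lower and 1 higher, with a median log2 change of -0.77; with all intron reads as library size 19 were lower and the median was -0.35. RPL22B, whose protein represses its own splicing, had 2003, 1645 and 1577 CPM (TMM-normalised) in WT and 685, 662 and 654 in prp2-1 (log2 change -1.38, SE 0.19, adjusted p = 0.000609). RPL40B, which encodes a ubiquitin fusion, had a log2 change of -1.33, RPL42B -1.31, RPL34B -1.27, RPS29A -1.26 and RPL16A -1.25.

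Both U3 genes were lower. SNR17B had 17930, 15827 and 12252 in WT and 8136, 3659 and 6577 in prp2-1 (log2 change -1.32, SE 0.31, adjusted p = 0.00775), and SNR17A had 22968, 18768 and 17348 and then 10947, 5711 and 10518 (log2 change -1.12, SE 0.29, adjusted p = 0.0109). NOG2, a GTPase gene of large-subunit assembly that hosts a small nucleolar RNA, had 1376, 2827 and 3289 in WT and 539, 392 and 873 in prp2-1 (log2 change -2.06, SE 0.39, adjusted p = 0.00297). Of the 11 introns in host genes, some of which are ribosomal protein genes, 5 were lower and 0 higher. Of the 9 introns in genes that regulate their own splicing or decay, also partly ribosomal, 5 were lower and 0 higher, with a median log2 change of -0.88. The shares lower were 45.5% in the host genes and 55.6% in the self-regulated ones. They were 65.4% among ribosomal protein introns and 27.1% over all introns.

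DBP2 was the mRNA that fell furthest after HMRA1. It had 525, 727 and 1047 CPM in WT and 152, 132 and 181 in prp2-1, with every prp2-1 course below every WT course (log2 change -2.31, SE 0.30, adjusted p = 0.000513).

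HMRA1 was a case apart. Its first intron gave 7171, 6817 and 7474 reads in the WT courses and 0, 0 and 1 in the prp2-1 courses. As CPM over all intron reads this is 540 against 0.115, a level 4683 times lower (exact 95% interval from counting error, 840 to 184974). The second intron gave 103 reads in WT and 3 in prp2-1. The a1 message is made by cells of mating type a, which BY4741 is; the labels give no mating type for prp2-1, and this difference cannot be told apart from that of the strains' backgrounds.

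The largest rises were in genes outside protein synthesis. USV1, a transcription factor gene of stress and salt responses, had 142, 80.9 and 75.8 CPM in WT and 3668, 3509 and 1320 in prp2-1 (log2 change 4.83, SE 0.46, adjusted p = 0.000103). RRT8 had 75.9, 61.3 and 62.0 in WT and 961, 1395 and 580 in prp2-1 (log2 change 3.88, SE 0.35, adjusted p = 8.06e-05). CMC4, which encodes a protein of the mitochondrial intermembrane space, had 843, 977 and 1213 in WT and 10554, 9146 and 10818 in prp2-1 (log2 change 3.33, SE 0.23, adjusted p = 1.63e-05), and the courses of each strain were close together.

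The introns of RRT8 and CMC4 are short and differ from the yeast consensus at both the 5′ splice site and the branch sequence, and are shown whole for that reason. RRT8 (chrXV:240948-241025, minus strand, 78 nt) has the 5′ splice site GTAAGT and the branch sequence GACTAAC. CMC4 (chrXIII:652776-652847, minus strand, 72 nt) has GTTTGT and CACTAAC.
RRT8: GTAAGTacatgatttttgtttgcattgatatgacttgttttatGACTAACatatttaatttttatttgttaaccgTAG
CMC4: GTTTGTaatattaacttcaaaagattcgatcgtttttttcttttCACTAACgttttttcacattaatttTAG
As a description, the median log2 change of labelled RNA was -0.10 over 192 introns with TACTAAC and 0.83 over 39 with another branch sequence. Without ribosomal protein introns, nearly all of which have TACTAAC, the medians were 0.63 over 110 and 0.95 over 35.

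Of 9 introns in mitochondrial genes 8 were higher and 0 lower, with a median log2 change of 1.95. Over all introns 33.2% were higher with a median of 0.11, and outside the ribosomal proteins 91 of 173 (52.6%) were higher with a median of 0.69. QCR10, a subunit of respiratory complex III, had 80.9, 49.5 and 35.5 in WT and 427, 531 and 259 in prp2-1 (log2 change 2.88, SE 0.39, adjusted p = 0.000568). COX4, a subunit of cytochrome c oxidase, had 225, 219 and 275 and then 1211, 1838 and 918 (log2 change 2.46, SE 0.29, adjusted p = 0.000353). MCR1 had a log2 change of 2.00 (SE 0.21, adjusted p = 0.000178). RIM1, a single-stranded DNA-binding protein of mitochondrial DNA, was the exception at -0.03. OM14, an outer-membrane protein gene that was not in the list, had a log2 change of 3.10 (SE 0.32, adjusted p = 0.000178).

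In genes of the actin cytoskeleton 5 of 6 introns were higher, with ARP9 as the exception at -0.01. The group's median log2 change was 0.87. Outside the ribosomal proteins the median was 0.69 and 52.6% of introns were higher, beside 33.2% over all introns. ARP9 serves in chromatin remodelling complexes. ACT1 had 3986, 3709 and 4023 in WT and 6921, 8004 and 8235 in prp2-1 (log2 change 0.98, SE 0.19, adjusted p = 0.00331), and SAC6, which encodes fimbrin, had 432, 546 and 419 and then 1532, 2876 and 1666 (log2 change 2.12, SE 0.28, adjusted p = 0.000568). YSC84 and PAL2, both linked to actin patches and endocytosis, rose by log2 changes of 2.76 (SE 0.25) and 2.84 (SE 0.41).

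Of all introns outside the ribosomal proteins, 52.6% were higher. Of 8 introns of kinases, phosphatases and their partners 7 were higher (median 0.86), among them BMH2 (log2 change 1.28, SE 0.27) and GLC7, the catalytic subunit of protein phosphatase 1 (1.19, SE 0.29; with prp2-1 course 1 alone 0.54, adjusted p = 0.201). Of 8 in ubiquitin-like conjugation 5 were higher (median 0.95), led by UBC5 (1.96, SE 0.24) and UBC8 (1.69, SE 0.37). The secretory pathway had 2 of 14 higher, SNC1 (1.26, SE 0.30) among them, and 7 of 14 with the replicate block.

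Of the 13 introns of the meiosis list 5 were tested, of which 4 were higher and 1 lower, at low levels. Over all introns 33.2% were higher, and 52.6% of those outside the ribosomal proteins. The count filter takes the mean over the courses of both strains. An intron scarce in WT can therefore be tested because it is abundant in prp2-1, and these counts do not describe the list as a whole. REC114, a gene of meiotic recombination initiation, had 8.98, 4.29 and 2.54 in WT and 44.3, 77.5 and 26.2 in prp2-1 (log2 change 3.23, SE 0.54, adjusted p = 0.00170). SAE3 had 21.1, 3.76 and 2.702 in WT and 27.7, 26.2 and 262 in prp2-1, where 1 course was far above the rest (log2 change 3.49, SE 1.07, adjusted p = 0.0196; without that course 1.52, adjusted p = 0.0889). The second intron of HOP2 was the lower one (log2 change -1.23, SE 0.39, adjusted p = 0.0212). YDR535C, an open reading frame of unknown function, had a log2 change of 2.52 (SE 0.35).

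HAC1 rose, while its unspliced share did not pass. It had 1130, 753 and 583 CPM in WT and 4586, 3235 and 4076 in prp2-1 (log2 change 2.27, SE 0.28, adjusted p = 0.000493). Hac1 is the transcription factor of the unfolded protein response. The first intron of SUS1 was higher (1.27, SE 0.30, adjusted p = 0.00773) and the second was not called (0.13, SE 0.25), although both belong to 1 transcript. GCR1 had 0.56 (SE 0.23, adjusted p = 0.0555). RPL18B had 2648, 941 and 1224 in WT and 4250, 3244 and 16266 in prp2-1 (log2 change 2.30, SE 0.63, adjusted p = 0.0131); course 1 alone gave 1.25 (adjusted p = 0.0779), and without the 210 s libraries it was 0.17 (adjusted p = 0.736).

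In the remaining groups few introns passed. Of 7 introns in mRNA export and decay 1 rose (the first of SUS1) and 1 fell (DBP2), of 5 in spliceosome components 1 rose, of 8 in transcription and chromatin 2 rose, and of 6 in tubulin and its folding 1 rose and 1 fell, the latter in CIN2 (log2 change -0.93, SE 0.30). None of 5 in tRNA modification or 3 in translation factors passed. Of the 16 introns with a lower unspliced share, 6 were lower in labelled RNA, 2 were higher and 8 were not called. Over all 277 introns 27.1% were lower in labelled RNA and 33.2% higher. Of the 260 with no call in the unspliced share 158 had one in labelled RNA, beside 60.3% over all introns. Whether the calls in the unspliced share and in labelled RNA are related was not tested.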

How the data were processed

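Labelled RNA was measured by primer extension in 18 libraries, and tables of raw read counts per intron, read state and library were used as deposited by the authors. Reads were aligned with STAR 2.7.2b to R64, per the submitters' processing notes; how reads were assigned to introns and read states is not given in the sources used here. The authors' normalised tables (signal) were deposited, as their values show, as unspliced counts multiplied by 1 factor per labelled library less the strain's mean count at 0 s, and served only to check the column order. Counts of 150, 210 and 300 s were summed per course. Column order in prp2-1 courses 2 and 3 follows the shift described in the report. Unspliced and lariat shares were tested with edgeR 4.0.16 (R 4.3.3) as the interaction of strain and read state, with a term per course; labelled RNA was tested after TMM scaling, and spike-in values with spike-in reads as library size. An intron needed a mean of at least 20 unspliced and 100 total reads per course, or 20 unspliced and 5 lariat reads. P-values were adjusted by Benjamini-Hochberg at 0.05, and SE is the absolute log2 change over the root of the F statistic. DESeq2 1.42.0 and limma 3.58.1 (pseudocount 0.5) were alternatives. The fits were tested on simulated data.

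Same-numbered courses deviated together (correlations over introns of 0.19, 0.41 and 0.41 for the unspliced share, 0.12, 0.18 and 0.43 for the lariat share, 0.23, 0.38 and 0.37 for labelled RNA). Pairs of other numbers had -0.43 to 0.11, -0.33 to 0.13 and -0.355 to 0.073. In the lariat share WT course 2 with prp2-1 course 1 had 0.13, above the 0.12 of the courses numbered 1. Fits with the replicate number as a block are therefore given for the counts and for some introns. Introns were named by a rule: the 10 largest changes per direction that passed without overlap of courses (8 for lariats, 3 by adjusted p for spike-in values), up to 4 per gene group, and DBP2, MCR1, ACT1, GCR1, HAC1, SUS1 and U3 always. RPL2B, RPL20B, RPL37A, RPL39 and RPS4B, which complete the lower group of the unspliced share, were named after their values were seen. The members, gene lists and rules were chosen with earlier results of these data known. Intervals cover counting error only; whether PCR copies were collapsed is not given in the sources used here. Sequences are RefSeq, R64. Branch sequences were picked as the closest match to TACTAAC towards the 3′ end of the intron, and distances to the 3′ splice site rest on that choice. No intron coordinates were found there for MCR1, USV1, SNR17A, SNR17B, BMH2, RPS8B and COX4, so their sequences are not shown.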

Additional observations from a re-analysis of the deposited data

How the results depend on the processing

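The number of introns with a lower unspliced share, 16 as reported, was 73 with the replicate block, 37 in DESeq2, 10 with 5 times higher minimums, 45 without reads past the branch point, 64 without the 210 s libraries (chosen after seeing the data), 2 at 210 s alone, and 0 at 150 s alone, 300 s alone or with equal weight of the times; leaving out 1 course gave 0 to 78. The number higher, 1 as reported, was 3 with the block, in DESeq2 and with TMM per read state, 2 in limma, at 210 s alone and with prp2-1 course 1 alone, and 0 at 150 s alone, 300 s alone and without 210 s; leaving out 1 course gave 0 to 3. The median log2 change, -0.51, was 0.14 at 210 s alone, -0.094 at 300 s alone and -0.12 with equal weight. For the lariat share, the number lower was 6 with the block, 3 in DESeq2, 5 at 210 s alone and 0 at 150 s alone, 300 s alone, with course 1 alone, without reads past the branch point and without 210 s (0 to 4 leaving out 1 course); the number higher was 2 with the block, 3 at 210 s alone and 0 at 150 s alone, 300 s alone and with course 1 alone (0 to 1 leaving out 1 course). Its median was -0.19 at 210 s alone and 0.10 with TMM per read state. For labelled RNA, 48 introns were lower at 210 s alone, 21 lower and 47 higher at 300 s alone, 23 lower with intron reads as library size (median 0.55), and 275 lower and 0 higher with spike-in library size (median -4.73); the median was -0.056 with course 1 alone. The median of unspliced reads per spike-in read was -5.19 with course 1 alone. The cause of these shifts was not tested.

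RPL18B turned to -1.60 in unspliced share without reads past the branch point, and at 210 s alone RPS9A had 0.20 and RPL20B 0.000818. With spike-in library size the log2 change of labelled RNA was -0.93 for RRT8, -1.41 for SAE3, -1.55 for CMC4, -1.54 for REC114, -1.81 for OM14, -1.92 for QCR10, -1.93 for PAL2, -2.06 for YSC84, -2.31 for YDR535C, -2.87 for MCR1, -3.87 for ACT1, -4.31 for GCR1, -2.57 for HAC1, -3.55 and -4.73 for the SUS1 introns, -2.62 for RPL18B, -2.37 for COX4, -2.68 for SAC6, -3.68 for GLC7, -3.53 for BMH2, -2.88 for UBC5, -3.12 for UBC8 and -3.56 for SNC1. With the replicate block, 10 named values passed that had not, and 0 were lost. Leaving out WT course 2 took 23 named values out of their calls, WT course 3 took 19 and prp2-1 course 1 took 21.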
